A study of Talpa occidentalis with 2 samples.

Results

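Single-copy intronless coding genes are genes whose whole protein is read from 1 uninterrupted stretch of the genome and that have no second model in the annotation. They were taken from the gene annotation of the Iberian mole, Talpa occidentalis, that was deposited with a study of FGF9 promoter contacts. The study made 1 circular chromosome conformation capture (4C-seq) library from wild-type forebrain and 1 from wild-type hindlimb, both of embryonic day 15. In 4C-seq, the fragments ligated to a chosen viewpoint are sequenced, and here the viewpoint was the FGF9 transcription start. The annotation has no column for either library, so contact values, their depth and any difference between forebrain and hindlimb were not analysed here.

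Members were the gene symbols with exactly 1 model, whose only coding (CDS) record was at least 900 bases long. Symbols of olfactory, taste, vomeronasal and Toll-like receptors, histones, protocadherins and Frizzled receptors were left out by name. Of 16075 distinct symbols, 13727 had 1 model, 975 of these had 1 CDS record, and 524 of these reached 900 bases. The name patterns removed 102, of which 83 were olfactory receptors, and left 422 members (2.63% of all symbols). These patterns were applied to the members only, and the groups of symbols set beside them below keep such names. The limit of 900 bases was likewise not applied to symbols with several coding exons or to all symbols with 1 model. Copy number, exon number and coding length chose these genes and are given below only as a description. The table describes 1 assembled genome, so there are no replicates and no test was made. The intervals given are 95% Wilson intervals for counting error only.

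Most vertebrate protein-coding genes are interrupted by introns, which the spliceosome removes from the primary transcript. Intronless genes arise in several ways: by copying of a spliced messenger RNA back into the genome (retrogenes), by domestication of transposons, and as old families whose coding part lies in a single exon. G protein-coupled receptors, membrane proteins that bind hormones, transmitters and metabolites, are the best known of these families. A gene with an uninterrupted coding part can still have introns in its untranslated regions, and those regions are not in this annotation.

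G protein-coupled receptors were the most frequent of the listed classes. Symbols that matched their name patterns made up 104 of the 422 (24.6%), against 1.51% of all distinct symbols, and 42.8% of the 243 receptor symbols with a model were members. The shares of symbols that became members were 27.0% for leucine-rich repeat cell surface proteins (30 of 111), 26.1% for potassium channels and connexins (18 of 69) and 19.5% for glycosyltransferases and sulfotransferases (23 of 118). They were 8.47% for the listed transcription factor families (10 of 118) and 6.25% for zinc finger proteins (23 of 368). In all, 248 members (58.8%) fell into 1 of 24 families defined by symbol patterns, and the other 174 into none. The patterns do not take every receptor: GPER1, an estrogen-responsive receptor with 1110 bases, is among the 174 and was noticed after the counts were made.

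Among receptors of transmitters, 15 aminergic and muscarinic receptors were members. CHRM3, the muscarinic receptor of smooth muscle and glands, was the longest with 1767 coding bases. CHRM5 had 1596, CHRM4 1434 and CHRM2, the muscarinic receptor of the heart, 1416. The serotonin receptors HTR1A, HTR1B, HTR1D, HTR1E and HTR1F had 1266, 1173, 1131, 1095 and 1153 coding bases. DRD1, a dopamine receptor, had 1347 and ADRA2B, an adrenergic receptor, 1368. The trace amine receptors TAAR1 and TAAR5, with 1014 and 1011, were the shortest of the group. Of these 15 models, 14 held a whole number of codons, and HTR1F did not.

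The receptors of lipids and metabolites gave 19 members of 34 symbols with a model (55.9%), the highest share of any listed family. They included CNR1, the cannabinoid receptor of the brain, with 1419 coding bases, and the sphingosine 1-phosphate receptors S1PR1, S1PR2, S1PR3 and S1PR4, with 1146, 1056, 1134 and 1155. The fatty acid receptors FFAR1 and FFAR3 had 900 and 960. Their median was 1095 coding bases. Among chemoattractant and other immune receptors, 14 of 29 were members, all of whole codons, with lengths in a narrow band of 996 bases for XCR1 to 1116 for CCR2. CXCR4, the receptor that guides blood and germ cells, had 1074. The 16 peptide receptors reached from MAS1, with 954, to RXFP3, with 1380. They included the angiotensin receptors AGTR1 and AGTR2, with 1092 and 1086, and the somatostatin receptors SSTR1, SSTR2 and SSTR3, with 1167, 1201 and 1258. A further 35 members carried GPR names, from GPR141, with 906 bases, to GPR75, with 1620.

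Coding lengths of all members ran from 900 to 4905 bases with a median of 1260.5, and the distribution leaned to the lower limit. Between 900 and 1199 bases lay 193 members (45.7%), while 14 (3.32%) had 3000 or more. Receptors were short and uniform: the middle 50% of the 104 receptor models, between the quartiles, lay between 1026 and 1158 bases. The 30 leucine-rich repeat proteins were longer, with a median of 1898.5 bases. They were led by SLITRK3, with 2928, and SLITRK5, with 2877, members of a family of neuronal proteins that organise synapses. The family patterns also gave 23 zinc finger proteins, with a median of 1710 bases, and 18 channel proteins, with a median of 1284.

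**Figure D1:**
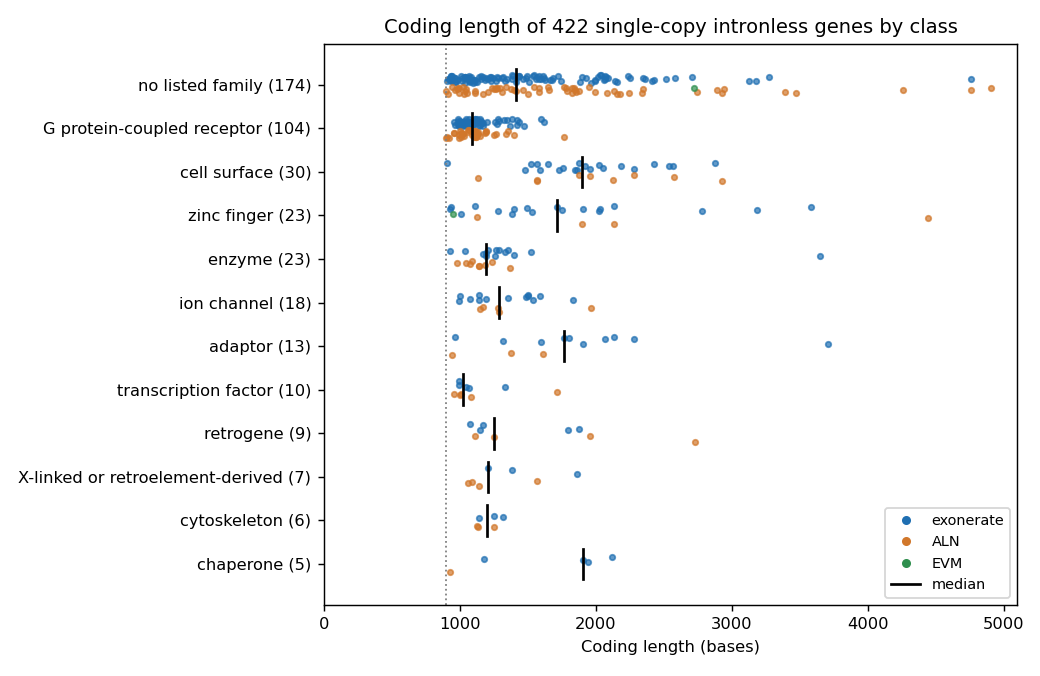
Coding length in bases of each of the 422 members (points, coloured by the annotation source) by class, with the number of members in brackets, the median as a black bar and the limit of 900 bases dotted. Receptors crowd between 900 and 1767 bases, and the 3 longest members, RIMBP3B, SAMD9L and SAMD9 with 4755 to 4905 bases, belong to no listed family.

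The longest members belonged to varied families. RIMBP3B, of a family of RIM-binding proteins with a role in sperm head shaping, had 4905 coding bases, 1635 codons, on scaffold 11 at 639204 to 644108 (minus strand). SAMD9L and SAMD9, antiviral proteins that also restrain cell growth, had 4758 and 4755, and lay next to each other on scaffold 16. ZNF518A, a zinc finger protein, had 4440. C10orf71, with 4256 bases, did not hold whole codons. IRS1, the adaptor that passes on the insulin signal, had 3706, and DSEL, an epimerase-like enzyme of dermatan sulfate, had 3651. ZBTB38, which binds methylated DNA, had 3585, NRIP1, a nuclear receptor corepressor, 3468, and AMER1, an inhibitor of WNT signalling, 3393. At the limit, FFAR1 and THAP11 had 900 bases, LRRC30 903, GPR141 906 and C8orf48 907. Just outside it were CAPZA3 and the adrenocorticotropin receptor MC2R with 897 each, C6orf47 with 895, and CXorf21 and STX19 with 894 each.

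Members outside the receptor, channel and surface protein families can be sorted by role. These groups were put together after the members were seen. Mitochondrial proteins numbered 14, from the carrier SLC25A2, with 912 bases, to FASTKD5, a factor of mitochondrial RNA processing, with 2346. They included the mitochondrial tRNA synthetases MARS2 and PARS2, with 1779 and 1437, and the transcription termination factors MTERF1 and MTERF2, with 1167 and 1155. Proteins of DNA recombination and repair numbered 7. RAG1 and RAG2, which cut DNA to assemble antigen receptor genes, had 3129 and 1581 bases, and LIG4, the ligase that closes such breaks, had 2740. Transposon-derived genes gave 9 members. TIGD2, TIGD3, TIGD4, TIGD6 and TIGD7, named after the tigger transposon, had 1581, 1437, 1536, 1569 and 1645, and ZBED6, a repressor of IGF2 in muscle, had 2940. Genes of innate immunity gave 7 members, which besides SAMD9L and SAMD9 included MPEG1, a pore-forming protein of macrophages, with 2154 bases. The zinc finger homeobox genes ZHX1, ZHX2, ZHX3 and TSHZ1 had 2706, 2517, 2925 and 3270 bases.

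A further group held 8 genes of the germ line, and other members with testis roles were not put in it. PGK2, with 1251 bases, is the testis copy of a glycolytic kinase whose parent lies on the X chromosome in other mammals. PDHA2, with 1173, counted above with the mitochondrial proteins, is the testis copy of a pyruvate dehydrogenase subunit. MOS, the kinase that arrests the egg before fertilisation, had 1032 bases. CCIN, calicin of the sperm head, had 1764, and KIF2B, a kinesin, had 2016. The testis serine kinases TSSK1B and TSSK2, of the listed retrogenes and not of the 8, had 1107 and 1074. Of glycan synthesis, outside the listed family, DOLK, the kinase of dolichol, had 1614 bases, and PIGM and PIGW, of the GPI anchor pathway, had 1263 and 1506. The listed family added 23 enzymes, of which MGAT1 and MGAT2, which build complex N-glycans, had 1329 and 1353.

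The source of the models separated the members from other genes. Exonerate, a program that aligns proteins or transcripts to a genome, gave 272 members (64.5%), against 3.86% of the 12752 symbols with 1 model of several coding exons. A source named ALN gave 148 (35.1%), against 7.21%. EVM, which merges separate predictions and alignments into a consensus model, gave 2 (0.474%), against 88.9%. Over all symbols with 1 model, the shares were 7.97% for exonerate, 9.29% for ALN and 82.7% for EVM. The 2 EVM members were SPATA31A3 and ZNF181. Single-CDS symbols under 900 bases had nearly the same make-up as the members, with 65.0% from exonerate, 31.7% from ALN and 3.33% from EVM.

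The identifiers of the exonerate models name the protein that was placed. Of the 272, 68 carried the code CC with RefSeq protein accessions, 55 a human Ensembl protein (ENSP), 41 the code HG, 37 an elephant (ENSLAFP), 34 a mouse (ENSMUSP), 27 a bat (ENSMLUP), 7 a shrew (ENSSARP) and 3 a hedgehog (ENSEEUP) protein. The sources used here do not say what HG and CC stand for. Of the 148 ALN members, 116 were named after an XP protein accession and 32 after a human protein entry.

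The annotation also gives, for each model, which part of it matched a named target transcript of another annotation. The range of the model from its first to its last matched base, as a share of its coding bases, is called coverage here. Gaps inside that range were not taken off. All 422 members were matched to a target of their own symbol. Whether the names were taken from these targets was not examined, so this is no check of the names. Coverage reached at least 90% in 407 of 422 members (96.4%, interval 94.2 to 97.8%), against 62.2% of symbols with several coding exons (interval 61.3 to 63.0%) and 64.2% of all symbols with 1 model and a match. The median coverage was 99.9% in members and 96.1% in symbols with several coding exons. In 179 members (42.4%) the matched range took in every coding base. The match came within 3 bases of both ends of the model in 63.3% of members, against 33.6% of symbols with several coding exons and 35.1% of all. Single-CDS symbols under 900 bases lay between, with 85.3% at 90% coverage or more (interval 81.8 to 88.3%) and 50.4% matched to both ends.

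Because the sources differed so much, coverage was also read within each source. Among exonerate models, 97.1% of members reached 90% coverage, against 78.5% of the 492 symbols with several coding exons. Over all exonerate symbols with 1 model and a match, the share was 85.0%. Among ALN models the shares were 95.9% of members, 51.6% of the 917 symbols with several coding exons and a match, and 62.9% of all. The intervals of members and symbols with several coding exons did not overlap in either source. The symbols with several coding exons had no length limit and were shorter within these sources. Their median coding lengths were 837 bases in exonerate and 930 in ALN, against 1277.5 and 1234.5 in members. Coverage at equal coding length was not tested. Single-CDS symbols under 900 bases reached 83.9% in exonerate (interval 79.3 to 87.7%) and 87.4% in ALN (interval 81.0 to 91.9%), and the ALN interval overlapped that of the members, 91.4 to 98.1%. Coverage is not a share of the target, whose full length is not in the annotation. The target stretch was within 10% of the length of the matched model range in 417 of 422 members. The match started at target base 1 in 8 members and at model base 1 in 269. The target is a transcript and can begin with an untranslated region. A later start in the target therefore does not show that coding bases were missed.

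**Figure D2:**
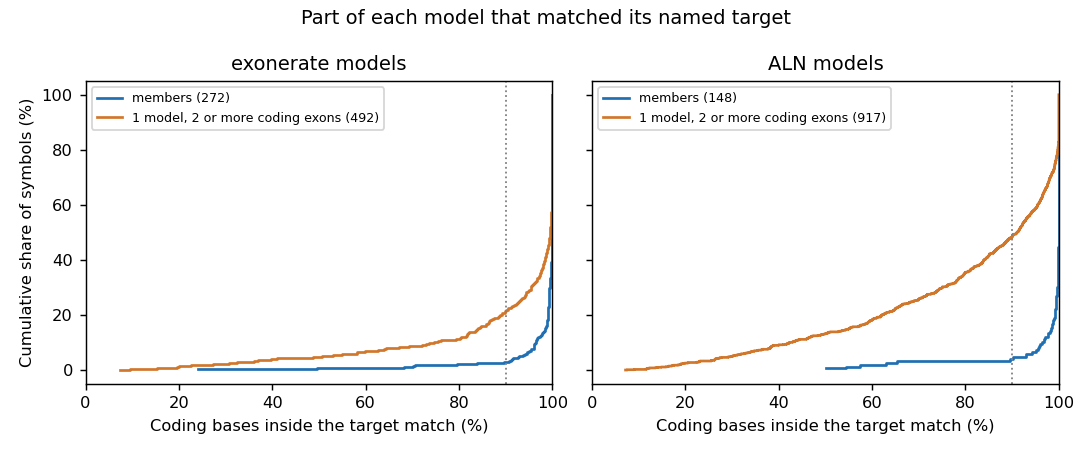
Cumulative share of symbols (%) against the share of coding bases inside the target match (%), for members (blue) and symbols with 1 model and several coding exons (orange), in exonerate models on the left and ALN models on the right, with 90% dotted. The blue curves stay near 0 up to 90%, where 97.1% of exonerate members and 95.9% of ALN members are still to come.

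The members with low coverage were few. The lowest was SPATA31A3, a sperm protein, with 8.20% of 2721 bases, followed by the zinc finger gene ZNF583, with 24.1% of 1277 bases. FAM71A had 49.5% and TSPYL1, a nucleosome assembly protein, 50.1%. GJA3, a lens connexin, had 54.4% of 1287 bases, its match ending at base 700. ISLR2 had 57.5%, USP26, a testis deubiquitinase, 63.0%, ZNF343 65.2%, PRR30 68.2% and SLC25A3P1 70.2%. In these 10, only part of the model was tied to the symbol. The target stretch was over 10% shorter or longer than the matched model range in 5 members. In IRGC, 386 target bases stood against 1140 model bases, and in IVL, involucrin of the cornified skin envelope, 1754 stood against 1037. The others were ITPRIP, ZNF343 and ZNF583.

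A reading frame of whole codons was less frequent among members than among genes with introns, and this went with the source. Coding length was a multiple of 3 in 345 of 422 members (81.8%, interval 77.8 to 85.1%), against 94.4% of symbols with several coding exons (interval 94.0 to 94.8%) and 93.6% of all symbols with 1 model. It was 83.1% in single-CDS symbols under 900 bases (interval 79.4 to 86.3%), which overlapped the members. Within exonerate the shares were 77.9% of members and 77.4% of symbols with several coding exons, and within ALN 89.2% and 86.4%, with overlapping intervals in both. Over all symbols with 1 model they were 79.3% in exonerate and 87.7% in ALN. In EVM, which gave 2 members, 95.8% of symbols with several coding exons had whole codons. Over all receptors, 90 of 104 had whole codons, with 14 of 14 immune receptors but 11 of 16 peptide receptors. Connexins and actin-like proteins had them in 6 of 6 each, leucine-rich repeat proteins in 22 of 30 and zinc finger proteins in 15 of 23. In the groups put together by role, the counts were 14 of 14 mitochondrial, 8 of 8 germ line, 7 of 7 innate immunity and 4 of 4 zinc finger homeobox genes. They were 8 of 9 transposon-derived, 6 of 7 DNA repair, 3 of 4 organelle traffic, 4 of 6 glycan and GPI anchor and 2 of 3 AMER genes. IRS1, IRS4 and SPRY4, a feedback inhibitor of receptor kinases, did not. Whether a frame is interrupted was not tested, since no mole sequence was used here.

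Members lay on 50 scaffolds, with at most 27 on 1 of them, and 419 of 422 lay on scaffolds annotated to 1 Mb or more. The strand split was 202 on minus and 220 on plus. The nearest other model, measured from edge to edge, was at a median of 13.4 kb from members and 8.28 kb from symbols with several coding exons. It was at least 500 kb away for 6 of 421 members with a neighbour on the scaffold (1.43%, interval 0.655 to 3.07%), against 0.370% of symbols with several coding exons and 0.395% of all symbols with 1 model. Of the 6, 4 were leucine-rich repeat proteins, a class that made up 7.11% of all members. LRRC4C, a ligand of netrin-G at synapses, was 1526 kb from its neighbour, SLITRK4 1101 kb, SLITRK1 1081 kb from SLITRK6, and SLITRK5 698 kb. MC4R, the melanocortin receptor that curbs appetite, lay 740 kb from CDH20 and its model closed the annotated stretch of scaffold 41, at 10449386. The sixth was KIF2B, at 636 kb.

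**Figure D3:**
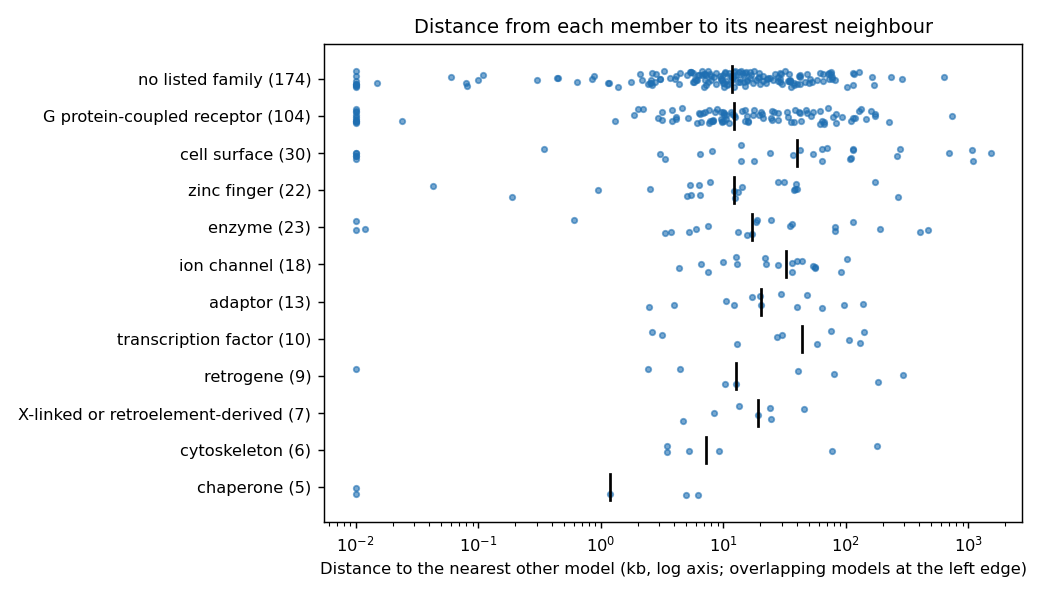
Distance in kb (log axis) from each member to the nearest other model, by class, with the median as a black bar and overlapping models drawn at the left edge. The 30 leucine-rich repeat cell surface proteins have a median of 39.8 kb and hold 4 of the 6 members beyond 500 kb. The 10 transcription factors have a higher median, 44.3 kb. The 104 receptors have a median of 12.3 kb, but the 15 aminergic and muscarinic receptors among them have one of 53.8 kb.

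Some members lay inside introns of other genes. This was so for 23 of 422 (5.45%, interval 3.66 to 8.05%), against 1.15% of symbols with several coding exons (interval 0.982 to 1.35%), 6.65% of single-CDS symbols under 900 bases and 1.49% of all symbols with 1 model. Of the 23, 10 were receptors and 5 leucine-rich repeat proteins, classes that made up 24.6% and 7.11% of all members. The long gene MED12L, of the Mediator complex family, held P2RY12, the ADP receptor of platelets, P2RY13 and GPR171. CASK held GPR82 and GPR34, and the tumour suppressor NF1 held EVI2B and OMG, the myelin glycoprotein. LPAR6, a receptor of lysophosphatidic acid, lay in RB1. The catenin genes CTNNA1 and CTNNA2 held LRRTM2 and LRRTM1, which are related synaptic proteins, and SND1 held LRRC4. LRRN3, the longest of the 23 with 2124 coding bases, lay in IMMP2L, whose model spanned 731 kb. AMIGO3, with 1521 bases, lay in a model of RNF123, and B3GALT2, a galactosyltransferase with 1266, in CDC73. MAB21L1 and MAB21L2, a pair of related eye development genes, lay in NBEA and LRBA, which are related to each other too. TRIM32, a ubiquitin ligase of muscle, lay in ASTN2, whose model spanned 569 kb.

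All 23 lay on the strand opposite to their host. Among the 13727 symbols with 1 model, however, 0 overlapped another model on the same strand, so the members do not stand apart from the other symbols in this. In the whole table, 140 models overlapped another on 1 strand. Overlap of any kind was found in 28 members (6.64%), against 5.49% of symbols with several coding exons and 5.6% of all. In 5 members the coding bases themselves overlapped: TSSK2, TAF7, HSPA1B, HSPA1L and MGAT2. HSPA1B overlapped a model of HSPA1A, and since these heat shock genes are near-identical copies, their assignment is uncertain.

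Some members stood side by side. Where neighbours on a scaffold were both members, they formed 34 runs with 74 genes (17.5% of members). Runs were not counted for other symbols, so whether this share is particular to the members was not tested. The longest run, of 7, held receptors of chemokines and related ligands, such as CXCR6, XCR1 and CCR1, within 239 kb of scaffold 12. A run of 3 on scaffold 4 held CPN2, LRRC15 and GP5, all leucine-rich repeat proteins, within 59.1 kb. The other 32 were pairs, 23 on 1 strand and 9 on opposite strands, and in 16 of them both genes belonged to 1 listed family. FFAR1 and FFAR3 lay within 5.01 kb, the leukotriene receptors LTB4R2 and LTB4R within 5.89 kb, and the actin-like ACTL7A and ACTL7B within 6.03 kb. HCAR1 and HCAR2, receptors of lactate and ketone bodies, lay within 11.7 kb. RAG2 and RAG1 lay within 12.7 kb on opposite strands of scaffold 18. SAMD9 and SAMD9L lay within 30.8 kb, and IFIT5 and IFIT1, which are induced by interferon, within 31.4 kb. SLITRK6 with SLITRK1, and SLITRK2 with SLITRK4, were also neighbours, although they spanned 1086 kb and 1114 kb.

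Near the 4C viewpoint, FGF9 on scaffold 38, there was 1 member within 2 Mb. GJA3, at 13246304 to 13247590 on the plus strand, started 1.48 Mb from the FGF9 start on its promoter side. On that side followed SOWAHC, at 2.72 Mb. On the other side lay LPAR6 at 3.02 Mb, CYSLTR2, a leukotriene receptor, at 3.25 Mb, TRIM13 at 4.37 Mb and, farther off, MAB21L1. Around SALL1, the other gene for which viewpoint primers are given, 0 members lay within 2 Mb, and the nearest was PDP2, a phosphatase of pyruvate dehydrogenase, at 3.60 Mb.

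Names and gene order were compared with RefSeq on MPIMG_talOcc4v2.1, another mole build. By symbol, 385 of 422 members (91.2%) were found there, all as protein-coding genes, against 89.9% of symbols with several coding exons and 88.8% of all symbols with 1 model. The share was 72.7% for single-CDS symbols under 900 bases. Among the 37 not found, 10 are older names, chosen after they were seen, and each was present under its later name, such as TENT5C for FAM46C and HASPIN for GSG2. Neighbours were compared for 384 members, by asking whether any of the 2 nearest shared symbols on each side lay within 3 places in the RefSeq order. This held for 382 of 384 members (99.5%), for 99.8% of symbols with several coding exons, for 92.8% of single-CDS symbols under 900 bases and for 99.6% of all. The 2 exceptions were HAGH, beside MDGA1 on scaffold 20, and IRGC, beside a model of BTNL3 on scaffold 21. HAGH, a glyoxalase gene, has several coding exons in human, and its 1 exon here had 945 bases.

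The members were then set against a list of 146 genes whose coding part is known to lie in 1 exon in human. The list was written from general knowledge after family counts had been seen, and describes how the rule reads this annotation. Of the 146, 80 (54.8%) were members, 17 had 1 CDS record under 900 bases, 21 had 1 model with several coding exons, 3 had several models, and 25 had no model under their symbol. The share of members was 32 of 48 (66.7%) for receptors and 40 of 55 (72.7%) for channels, connexins, surface proteins, chaperones and others. It was 8 of 43 (18.6%) for transcription factors. These counts lean on which genes were listed, and the difference was not tested.

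The transcription factors on the list were SOX, forkhead, POU3, basic helix-loop-helix and bZIP factors. SOX2, the pluripotency and neural factor, with 954 bases, was the only member of 8 SOX genes, of which 6 had no model. FOXS1 was the only member of 13 listed forkhead genes, with 990 bases, and 6 had no model. FOXA1, a forkhead member outside the list, had 1330 bases and not whole codons. POU3F4, a factor of the inner ear, with 1084 bases, was the only member of 4 POU3 genes. Of 12 basic helix-loop-helix genes, NEUROD4, NEUROD6 and ATOH1, which drive neurons to differentiate, were members with 990, 1011 and 1065 bases. JUN and JUNB, subunits of the AP-1 factor, had 999 and 1041. A further name counted with the helix-loop-helix family above, BHLHB9, is an older symbol of GPRASP3. Of the 25 listed genes without a model, 21 were present in RefSeq by symbol. Over the whole families, 35 of 151 RefSeq symbols of transcription factor families (23.2%) had no deposited model under the same symbol. The counts were 24 of 253 for receptors (9.49%) and 2000 of 15999 for all protein-coding symbols (12.5%). They were 72 of 379 for zinc finger proteins (19.0%) and 18 of 47 for MAGE, PNMA, RTL and ARMCX proteins (38.3%). The other listed classes lay between 3.64% and 10.9%.

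**Figure D4:**
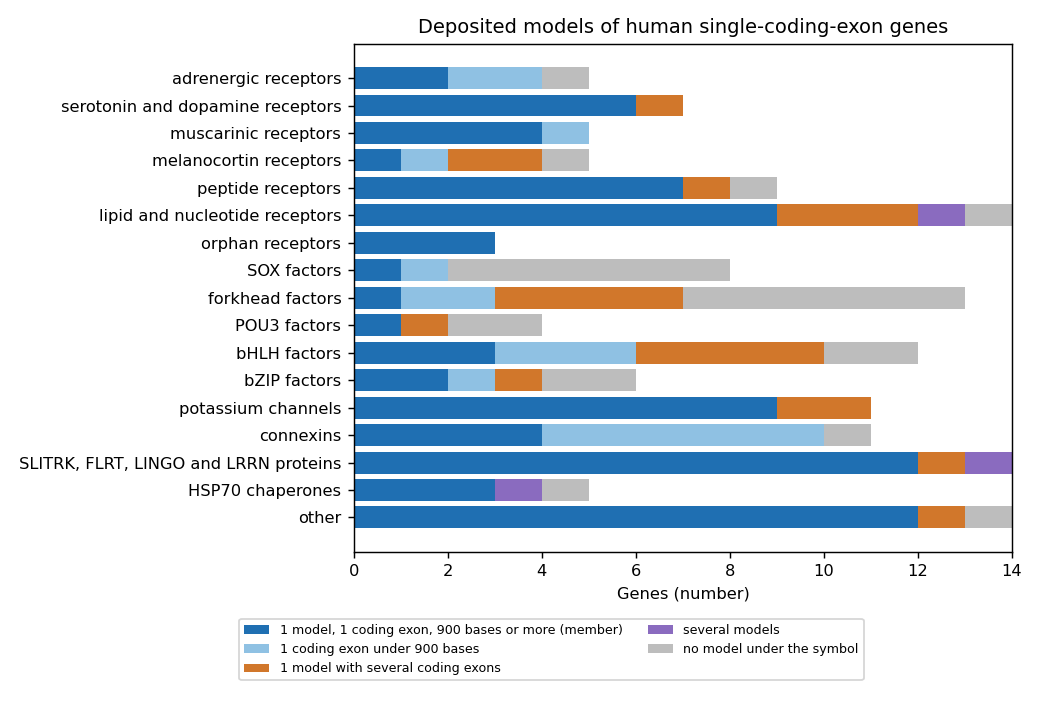
Number of genes on a list of 146 human single-coding-exon genes, by group, split by how the deposited annotation models them. Members fill most of the bars of serotonin, peptide and orphan receptors, potassium channels and SLITRK proteins, and 8 of 43 places in the SOX, forkhead, POU3, bHLH and bZIP bars.

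The 21 listed genes with several coding exons had a common form among receptors. In all 7 such receptors, the longest coding exon held at least 90% of the coding bases and the other exons, of 28 to 72 bases, lay 1.99 kb or more away. DRD5, a dopamine receptor, had exons of 72 and 1362 bases across 5.75 kb. The melanocortin receptors MC3R and MC5R had exons of 59 and 913 bases and of 929 and 46 bases, across 31.9 kb and 18.7 kb. P2RY14 had 61 and 1037 bases across 31.2 kb, and OXGR1 added exons of 29 and 28 bases, with one gap of 91.8 kb. Among the 10 such transcription factors, only FOXB1, with exons of 24 and 948 bases, had this form, and 7 had 3 exons or more. POU3F2 had 6 exons, of which the longest held 771 of 1284 bases, and its coverage, 60.0%, equalled that exon's share. In 13 of the 21 genes, coverage lay within 1 percentage point of the share of the longest exon. ALN gave 17 of the 21 models and exonerate 4. Over the whole annotation, 128 symbols with 1 model of several coding exons had a longest exon of at least 900 bases that held at least 90% of the coding bases.

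**Figure D5:**
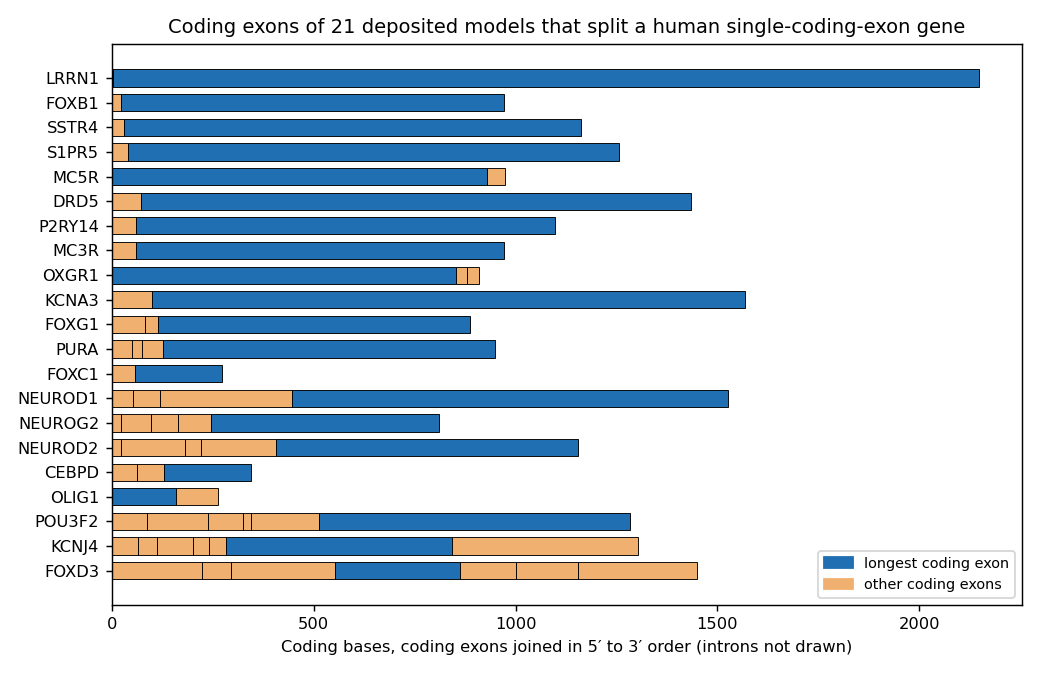
Coding exons, in bases, of the 21 listed genes whose deposited model has several coding exons, joined in 5′ to 3′ order with the longest exon in blue and the others in orange. In 10 of the 21, DRD5, MC3R and MC5R among them, the blue part is at least 90% of the bar, whereas in POU3F2, KCNJ4 and FOXD3 it is 60.0%, 42.9% and 21.3%.

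The 17 listed genes under 900 bases were of mixed kinds. The connexins GJB1, GJB2 and GJB5, which form gap junctions, had 852, 678 and 819 bases with 100% coverage, and GJA1, the connexin of heart muscle, was a member with 1146. CHRM1, a muscarinic receptor of the brain, had 402 bases, where the 4 other muscarinic receptors had at least 1416. ADRB1, the beta adrenergic receptor of the heart, had 183 bases, and ADRA2A had 815, where ADRA2B had 1368. The FOXE1 and CEBPA models had 258 and 333 bases.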

How the data were processed

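The study made 4C-seq libraries from mole embryos, 1 from forebrain and 1 from hindlimb, and the submitters' processing notes name BWA. The annotation analysed here, for build talOcc3, has no library columns. Its coordinates count from 1, and the deposited match score of each transcript was not used, because no source used here gives its formula. Models came from EVM, exonerate or ALN, per the file's second column. Copy and lowConf suffixes were removed from names, and LOC and model identifiers carried no symbol. Coding length was the sum of CDS records. Coverage used the deposited query range; 1 single-model symbol with a reversed range and 2 without one were left out. RefSeq of the later build gave names and order only. The members and lists were chosen with earlier results of these data known. Named genes were the 10 longest, the 5 on each side of the limit, the 10 of lowest coverage, members within 2 Mb of a viewpoint, the 10 longest nested members and members of families of at least 3. All other genes named, such as those given for a run, an overlap, a distance, a match or a group outside the families, were picked with their values in view. The routines, run in Python 3.11.15 with pandas 2.3.3, were tested on simulated data and found 1159 of 1159 planted members and 546 of 546 nested genes, and 90 of 100 moved genes. Alternatives covered the length limit, scaffolds, excluded families, coverage threshold, source, symbol matching and strand of overlap.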

Additional observations from a re-analysis of the deposited data

How the results depend on the processing

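The number of members, 422, was 559 with a limit of 600 bases, 524 with the excluded families kept, 447 when several models without introns were allowed and 419 on scaffolds of at least 1 Mb; it was 229 with a limit of 1200 bases, by construction. With a longest coding exon of 900 bases and 90% in place of 1 CDS record, chosen after seeing the data, it was 534. The receptor share, 24.6%, was 19.1% with a limit of 600 bases. Coverage of at least 95% was reached by 93.1% of members and 52.6% of symbols with several coding exons. Found in RefSeq were 93.6% with 10 later names, chosen after seeing the data, against 91.2%. Overlap fell to 0% when the same strand was required, as in all symbols with 1 model. Whole codons made up 89.2% in ALN members, against 81.8% in all. Over all alternatives, 18 values stayed within 1.5 times for counts or within the interval for shares and medians, and 6 did not. The RefSeq table held no synonyms, so that alternative could change nothing. Not run were the comparison of coding length with RefSeq proteins and that of promoter composition, for which no sequence was used here, and the 4C contacts. No paired analysis was possible because there is 1 library per tissue and no contact value. Precision is limited by the assembly and its gene models.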
